A study of Mus musculus with 10 samples.

Results

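Livers carrying SOD2 shRNA 1 were compared with livers of rtTA controls, gene by gene, in 4-week-old male mice. The comparison used 7 of the 10 liver arrays of the series, chosen by their titles: 3 with the genotype Rosa26-rtTA + SOD2 shRNA 1 and 4 with the genotype Rosa26-rtTA alone. Of 22180 genes that had a transcript cluster annotated with a single symbol, 13308 passed a filter on mean level and were tested. The doxycycline-dependent activator rtTA was present at the Rosa26 locus, which is active in most tissues, in all 10 samples, controls included. A short hairpin RNA (shRNA) lowers its target messenger RNA, here that of the mitochondrial superoxide dismutase. Doxycycline chow (625 mg/kg) was given to the dams, with knockdown labelled as lasting from embryonic day 0 to 12.5, so the livers were taken weeks after the hairpin was induced. The remaining 3 arrays, with the genotype Rosa26-rtTA + SOD2 shRNA 2, entered the same fit and served for a direct test between the hairpins. The labels place 3 of the controls in the shRNA 2 cohort and 1 in the shRNA 1 cohort without saying which, so that hairpin and cohort cannot be told apart here. They do not state that each liver came from a separate animal, and p-values therefore measure the spread between these samples.

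Sod2 encodes the enzyme of the mitochondrial matrix that turns superoxide, a by-product of respiration, into hydrogen peroxide. The adult liver makes fat and glucose, conjugates foreign compounds with glutathione, sulfate or glucuronic acid, and secretes most plasma proteins. Several of these programmes have well-known regulators: SREBP-1c and ChREBP for fat synthesis, NRF2 for genes induced by oxidants and electrophiles, the nuclear receptors CAR and PXR for drug metabolism, interleukin-6 for acute phase proteins, and the pulses of growth hormone for genes that differ between the sexes.

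Sod2 itself was not low at 4 weeks. Its log2 level in controls 1 to 4 was 10.38, 10.49, 10.33 and 10.33, and in the shRNA 1 livers 10.43, 10.43 and 10.32. The groups overlapped: control livers averaged 10.38 ± 0.08 (SD, n = 4) and those with the hairpin 10.39 ± 0.06 (SD, n = 3). The difference was 0.01 on the log2 scale with a standard error of 0.09 (limma adjusted p = 0.994). An exact two-sided permutation test over the 35 ways to choose 3 of the 7 arrays gave p = 0.971, where 0.0286 is the smallest p possible. Sod1, the cytosolic enzyme, differed by 0.12 (adjusted p = 0.823) and Sod3, the extracellular one, by -0.17 (adjusted p = 0.780), and for each of them the groups overlapped. How far Sod2 fell in the embryo is not shown by these 4-week livers.

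Differences between shRNA 1 livers and controls were small for most genes, and 0 of 13308 genes (0%) passed an adjusted p of 0.05 in limma. Limma borrows a common estimate of spread from all 10 arrays. The smallest adjusted p was 0.0520, for Acss2, and 20 genes lay under 0.10. At an unadjusted p under 0.05 there were 1050 genes (7.89%), where 665.4 correspond to chance alone: 608 (4.57%) higher and 442 (3.32%) lower in shRNA 1 livers. Without shRNA 1 liver 3 there were 416 higher and 312 lower. In 675 genes (5.07%) all 3 shRNA 1 livers stood above all 4 controls, and in 509 (3.82%) they stood below them. Exchangeable arrays would give a share of 0.0286 in each direction. The median difference over all genes was 0.01, 52.4% of genes had a higher mean in shRNA 1 livers, and only 28 genes differed by more than 1 on the log2 scale, which is a doubling. Because no gene passed, every gene below is described by its values and none is called changed. Without control 4 the test called 9 genes, without control 1 it called 2, without shRNA 2 liver 3 it called 11 and without shRNA 2 liver 2 it called 1. The arrays were alike in level, with medians of 4.06 to 4.17, and the correlation of any pair across genes was 0.981 to 0.992. Control 1 and shRNA 1 liver 1 stood apart in clock phase, with Arntl, which drives the clock, at 6.15 and 6.86 against 7.50 to 7.94 in the other livers compared, so each group held 1 such liver.

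**Figure D1:**
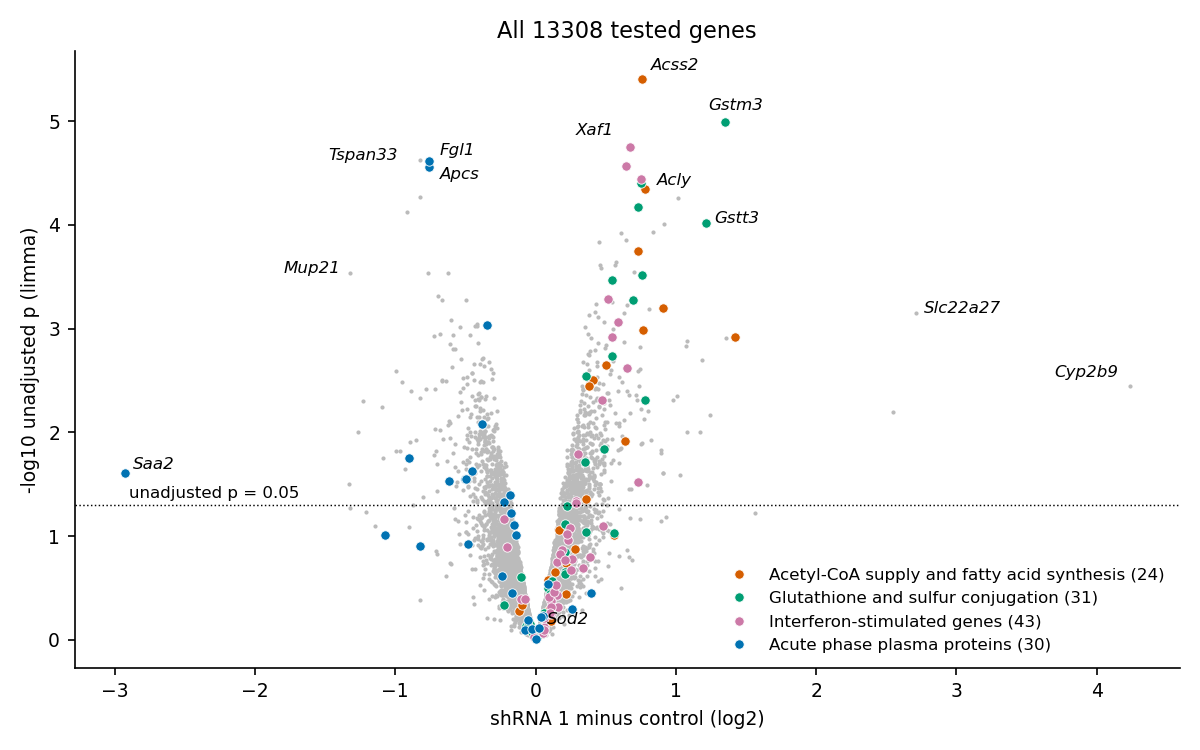
Difference between shRNA 1 and control means (horizontal, log2) against the -log10 of the unadjusted limma p (vertical) for each of the 13308 tested genes as a grey point, with the members of 4 gene lists in colour; the dotted line marks an unadjusted p of 0.05. Genes of acetyl-CoA supply, glutathione conjugation and the interferon response lie mostly to the right, acute phase genes mostly to the left, and Sod2 lies at 0.01.

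The genes with the smallest p-values included enzymes that make acetyl-CoA, enzymes that conjugate glutathione, and genes of the interferon response on the higher side. Acss2, which makes acetyl-CoA from acetate, was at log2 9.48, 9.74, 9.74 and 9.78 in controls 1 to 4 and at 10.46, 10.45 and 10.42 in shRNA 1 livers 1 to 3. All 3 shRNA 1 livers stood above all controls, and the lowest value was that of control 1. The difference was 0.76 with a standard error of 0.09, a 1.69-fold higher mean. Gstm3, a mu-class glutathione transferase, was at 7.98, 8.08, 8.37 and 8.08 in controls against 9.14, 9.60 and 9.70. It had the largest difference among the genes with an adjusted p under 0.10, 1.35 with a standard error of 0.18 (adjusted p = 0.0525), a 2.56-fold higher mean. Xdh, the xanthine oxidoreductase that ends purine breakdown and can release superoxide, was at 8.26, 8.51, 8.47 and 8.61 in controls against 9.11, 9.14 and 9.07 (difference 0.64, adjusted p = 0.0525). Acly, which makes acetyl-CoA from citrate, was at 10.19, 10.03, 10.20 and 9.76 in controls against 10.93, 10.91 and 10.62 (difference 0.78, adjusted p = 0.0603). For both of these genes the groups did not overlap, and they were 1.56-fold and 1.71-fold higher on average.

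Transport and metabolic regulators were also among them. Aqp8, a water and peroxide channel of the hepatocyte, was at 7.15, 7.97, 7.55 and 7.61 in controls against 8.47, 8.47 and 8.80 (difference 1.01, adjusted p = 0.0609). Ppargc1a, which encodes the coactivator PGC-1 alpha of mitochondrial and fasting genes, was at 6.61, 6.77, 6.38 and 6.57 in controls against 7.55, 7.49 and 7.22 (difference 0.84, adjusted p = 0.0894). Every shRNA 1 liver exceeded every control for these 2 genes as well. Slc17a4, a phosphate and urate transporter, differed by 0.91, Retreg1, a receptor for autophagy of the endoplasmic reticulum, by 0.61, Dhrs7, a short-chain dehydrogenase, by 0.64, and Gbe1, the glycogen branching enzyme, by 0.45, at adjusted p of 0.0821 to 0.0977.

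The 15 leading lower genes were of mixed kinds. Fgl1, a fibrinogen-like protein secreted by hepatocytes, was at 11.23, 11.33, 11.19 and 10.88 in controls against 10.49, 10.36 and 10.35 (difference -0.76, adjusted p = 0.0525). Apcs, which encodes serum amyloid P, an acute phase protein of the mouse, was at 9.85, 9.73 and 9.55 in controls 1, 3 and 4 and higher still in control 2, against 8.94, 9.10 and 9.03 (difference -0.76, adjusted p = 0.0525). Control 4 was the lowest control for both genes and still stood above all shRNA 1 livers. Tspan33, a tetraspanin known from red cell precursors and B cells, was at 6.93, 6.94, 6.74 and 6.52 in controls against 5.92, 6.02 and 5.94 (difference -0.82, adjusted p = 0.0525). The other 2 erythroid markers that could be tested, Slc4a1 and Sptb, overlapped between the groups with higher means in shRNA 1 livers, by 0.13 and 0.08. Pdilt, a protein of the disulfide isomerase family, differed by -0.82 (adjusted p = 0.0609), and Scara5, a receptor for serum ferritin, by -0.77 (adjusted p = 0.135). Lifr, the receptor for leukaemia inhibitory factor, differed by -0.49 and Gjb2, a connexin of hepatocyte gap junctions, by -0.54, at adjusted p of 0.197 and 0.233. For each of the 15 leading lower genes the shRNA 1 livers lay below all controls.

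**Figure D2:**
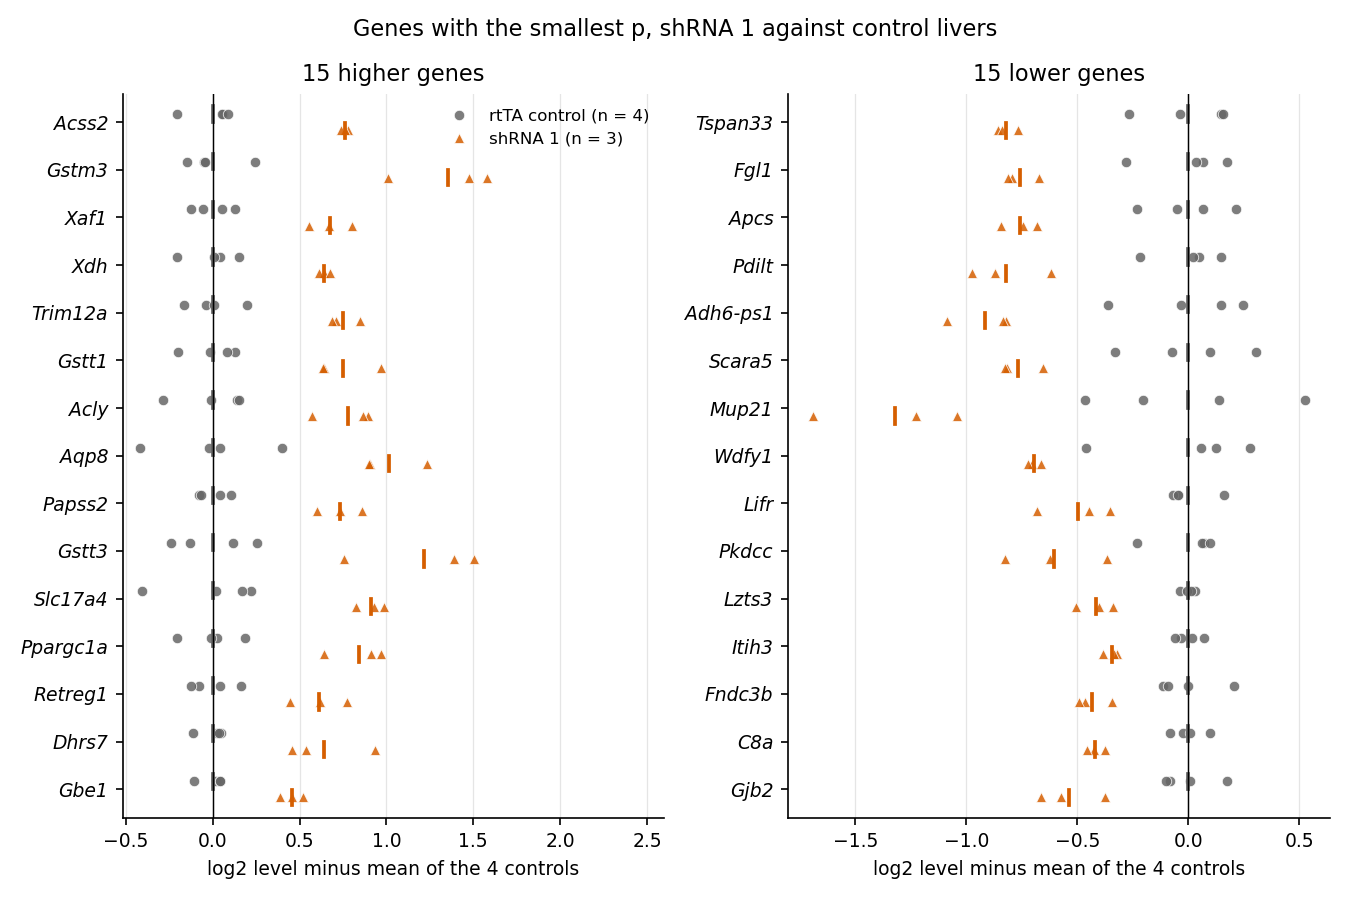
Log2 level minus the mean of the 4 controls (horizontal) for the 15 higher and 15 lower genes with the smallest p; circles are controls (n = 4), triangles shRNA 1 livers (n = 3), and short bars the group means. No triangle lies within the range of the circles in any row, which follows in part from choosing the rows by p.

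Genes for making fatty acids and their acetyl-CoA stood higher in shRNA 1 livers. Of the 24 measured members of this list, 21 had a higher mean, 11 lay at an unadjusted p under 0.05 and all 11 were higher, against 4.57% of all genes, and 0 passed the adjusted threshold. In 13 of the 24 the shRNA 1 livers stood above all controls, against 5.07% of all genes. Fasn, the fatty acid synthase, was at log2 10.80, 10.53, 10.78 and 10.22 in controls against 11.29, 11.44 and 11.21 (difference 0.73, standard error 0.14, adjusted p = 0.112). Me1, the malic enzyme that supplies NADPH, was at 9.35, 10.13, 10.14 and 10.01 in controls against 10.87, 10.73 and 10.84 (difference 0.91, adjusted p = 0.209). Control 1 was the low control for Me1, as it was for Acss2 and, at 4.59 against 5.67 to 6.36, for Acss3, a mitochondrial propionyl-CoA synthetase that stood at 7.09 to 7.22 in shRNA 1 livers. Elovl6, which elongates the product of Fasn, was at 9.78 to 9.95 in controls against 10.45 to 10.91 (difference 0.77, adjusted p = 0.238). The median difference over the list was 0.32, against 0.01 over all genes tested, and by liver the list median lay between 0.29 and 0.45 in shRNA 1 livers and between -0.05 and 0.05 in controls.

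Cholesterol synthesis, the neighbouring branch, had smaller differences. Of 19 measured members 16 had a higher mean, and 4 lay at an unadjusted p under 0.05, all higher, against 4.57% of all genes. The count was 2 without shRNA 1 liver 1. Fdps, the farnesyl diphosphate synthase, differed by 0.48 and Pmvk, the phosphomevalonate kinase, by 0.35, and for both all shRNA 1 livers were above all controls. The controls themselves were spread from -0.20 to 0.20 in the list median, a range that held the 3 shRNA 1 livers at 0.12 to 0.16. The list's median difference of 0.12 was 0.071 without control 1 and 0.19 without control 3.

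Glucose and glycogen genes leaned the same way. Of 22 measured members of the gluconeogenesis and glycogen list 21 had a higher mean, against 52.4% of all genes, and 9 lay at an unadjusted p under 0.05, all higher, against 4.57%. The median difference was 0.26. Ugp2, which makes the UDP-glucose used for glycogen, was at 10.56, 10.61, 10.49 and 10.67 in controls against 10.95, 10.90 and 11.16 (difference 0.42, adjusted p = 0.216). Tat, the tyrosine aminotransferase induced in fasting, was at 11.94 to 12.42 in controls against 12.45 to 12.90, and Got1, a transaminase that feeds gluconeogenesis, at 10.24 to 10.61 against 10.73 to 11.30. These groups did not overlap either, with differences of 0.54 and 0.56 and adjusted p of 0.324 and 0.308.

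The TCA cycle and the breakdown of amino acids shifted by less. In the TCA cycle and pyruvate entry list 24 of 26 members had a higher mean, and the 6 at an unadjusted p under 0.05 were all higher, against 4.57% of all genes. That count was 4 without shRNA 1 liver 1. Mpc1, a subunit of the mitochondrial pyruvate carrier, was at 10.70, 10.78, 10.96 and 10.68 in controls against 11.16, 11.19 and 11.13 (difference 0.38, adjusted p = 0.293), and Idh2, the mitochondrial NADP-dependent isocitrate dehydrogenase, differed by 0.39 (adjusted p = 0.402). The list median was 0.14 to 0.18 in shRNA 1 livers and -0.07 to 0.06 in controls. For the urea cycle and amino acid catabolism 26 of 31 members had a higher mean and 5 lay at an unadjusted p under 0.05, a count of 3 without shRNA 1 liver 2 or 3. Bckdhb, a subunit of the branched-chain keto acid dehydrogenase, and Slc25a15, the mitochondrial ornithine carrier, led it with differences of 0.43 and 0.33.

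Glutathione and sulfur conjugation held 4 of the 15 leading higher genes. Of its 31 measured members 25 had a higher mean and 12 lay at an unadjusted p under 0.05, all higher, against 4.57% of all genes. In 13 the shRNA 1 livers stood above all controls, against 5.07%. Besides Gstm3, the theta-class transferase Gstt1 was at 9.21, 9.54, 9.49 and 9.39 in controls against 10.05, 10.04 and 10.38 (difference 0.75, adjusted p = 0.0590). Its neighbour in class Gstt3 was at 4.82, 5.31, 4.92 and 5.17 in controls against 5.81, 6.44 and 6.56 (difference 1.22, adjusted p = 0.0821). Papss2, which makes the sulfate donor of all sulfotransferases, was at 9.81, 9.93, 9.82 and 9.99 in controls against 10.48, 10.62 and 10.75 (difference 0.73, adjusted p = 0.0687). The sulfotransferase Sult1d1 followed with 9.23 to 9.37 in controls against 9.80 to 10.23. In Gstm3, Gstt3 and Papss2 shRNA 1 liver 1 was the lowest of its group, and it had the lowest list median of the shRNA 1 livers, 0.13 against 0.24 and 0.38. Probes of near-identical Gst genes were not told apart beyond the array's annotation.

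NRF2 targets, a list that shares Gstm3 and other transferases with the one above, had 24 of 28 measured members with a higher mean, 13 higher and 1 lower at an unadjusted p under 0.05 (4.57% and 3.32% of all genes), and a median difference of 0.26. Gsta3, an alpha-class transferase, was at 9.80, 10.17, 10.13 and 10.14 in controls against 10.45, 10.68 and 10.67 (difference 0.54, adjusted p = 0.147). Ces1g, a carboxylesterase, was at 9.95, 10.31, 10.27 and 10.67 in controls against 10.98, 11.01 and 11.02 (difference 0.70, adjusted p = 0.135). Ephx1, the microsomal epoxide hydrolase, was at 10.35 to 10.64 in controls against 10.87 to 11.04. For all of these the groups did not overlap, and control 1 was the lowest control.

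NRF2 binds the antioxidant response element, whose core was searched as TGACNNNGC on both strands in RefSeq promoters of build GRCm38.p6, which run from 250 bases before to 50 after a gene's start. It was found in the promoters of 10 of the 23 tested NRF2 targets that had an entry, 43.5%, against 16.6% of the 10420 tested genes with an entry and 12.4% of all 32851 promoters. The list holds known targets, so this share does not bear on the difference between the groups. Itih3, Lifr and Mup21, which stood lower in shRNA 1 livers, also hold a match. The promoters of Gsta3 (chr1:21240335-21240634, + strand) and of Acss2 (chr2:155517793-155518092, + strand) are shown as examples chosen because they hold the match, Acss2 being the gene of smallest p and Gsta3 the third NRF2 target by test statistic. The NRF2 targets ahead of it, Gstm3 and Ces1g, hold no match in this window. Capitals mark the match, which begins 121 and 107 bases before the start.
Gsta3: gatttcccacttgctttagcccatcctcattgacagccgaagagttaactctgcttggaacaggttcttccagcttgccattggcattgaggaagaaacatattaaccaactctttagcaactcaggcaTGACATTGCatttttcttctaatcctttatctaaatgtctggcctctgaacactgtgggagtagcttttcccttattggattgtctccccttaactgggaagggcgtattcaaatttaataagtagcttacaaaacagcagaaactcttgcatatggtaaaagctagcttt
Acss2: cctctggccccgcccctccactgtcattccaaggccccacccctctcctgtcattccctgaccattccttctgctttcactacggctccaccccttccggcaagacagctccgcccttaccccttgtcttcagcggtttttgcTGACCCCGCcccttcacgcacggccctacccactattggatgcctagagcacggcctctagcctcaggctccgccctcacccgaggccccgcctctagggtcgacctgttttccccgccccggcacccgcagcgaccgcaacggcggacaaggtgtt
A sterol response element searched as TCACNCCAC was found in 1 of 20 tested fatty acid synthesis genes with an entry, 5.0%, against 1.47% of tested genes, and not in the Acss2 window. A match is a string of letters and not a measured binding site, and these windows leave out distant enhancers.

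Targets of CAR and PXR had the largest median of the lists on the higher side apart from female-biased genes. Of 29 measured members 26 had a higher mean, 15 lay at an unadjusted p under 0.05, all higher, against 4.57% of all genes, and the median difference was 0.45. With each array left out in turn, 10 to 18 lay there, the fewest without shRNA 1 liver 3. Cyp2b10, the gene most used as a reporter of CAR in the mouse, was at 4.06, 3.83, 4.68 and 3.74 in controls against 5.59, 5.09 and 5.28 (difference 1.24, adjusted p = 0.407). Cyp2c39, another P450, was at 3.96, 3.99, 3.93 and 5.05 in controls against 5.09, 5.85 and 5.82, so that control 4 lay just under the lowest shRNA 1 liver. By liver the list median was -0.20 to 0.18 in controls and 0.36 to 0.51 in shRNA 1 livers. Gstm3, Gstt1, Gstt3, Papss2 and Sult1d1 are members of this list too, so it is not independent of the conjugation list. It also shares listed genes with the female-biased list: Cyp2b9, Cyp2b13, Cyp2a4, Cyp3a16, Cyp3a41a, Cyp3a44 and Sult2a1. The medians of these lists are thus not separate results either.

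Alcohol, aldehyde and retinol oxidoreductases had 27 of 34 measured members with a higher mean and 12 higher and 1 lower at an unadjusted p under 0.05 (4.57% and 3.32% of all genes). The higher count was 7 without control 1. Aldh1a7, a cytosolic aldehyde dehydrogenase, was at 9.92 to 10.41 in controls against 10.52 to 10.67. The lower member was Adh6-ps1, annotated as a pseudogene of the alcohol dehydrogenase family, at 9.52, 9.85, 10.13 and 10.03 in controls against 8.80, 9.06 and 9.05 (difference -0.91, adjusted p = 0.0710).

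Enzymes that remove superoxide and peroxide differed little. Of 28 measured antioxidant enzymes 18 had a higher mean, against 52.4% of all genes. An unadjusted p under 0.05 was reached by 2 (1 to 3 with each array left out), both higher, against 4.57% of all genes. They were Glrx, a glutaredoxin, and Msra, a methionine sulfoxide reductase, with differences of 0.41 and 0.22. Prdx3, the mitochondrial peroxiredoxin, was at 9.54, 9.72, 9.65 and 9.39 in controls against 9.74, 9.91 and 9.73 (difference 0.22, adjusted p = 0.681). The list median of 0.05 was close to the 0.01 of all genes. Enzymes that can make superoxide or peroxide were mixed: 3 of 19 were higher and 2 lower at an unadjusted p under 0.05. Over all genes these shares were 4.57% and 3.32%. Xdh and Maob, a mitochondrial amine oxidase (difference 0.39), lay above all controls and Hao1, the peroxisomal glycolate oxidase (difference -0.38), below all of them. The median of this list was 0.15, and 0.093 without control 4.

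Interferon-stimulated genes stood higher in all 3 shRNA 1 livers. Of 43 measured members 38 had a higher mean and 12 lay at an unadjusted p under 0.05, all higher, against 4.57% of all genes. In 12 the shRNA 1 livers stood above all controls, against 5.07%. Xaf1, an inhibitor of apoptosis inhibitors, was at 6.18, 6.10, 5.99 and 5.92 in controls against 6.85, 6.60 and 6.72 (difference 0.68, adjusted p = 0.0525). Trim12a, of the antiviral tripartite motif family, was at 6.15, 6.39, 6.20 and 6.02 in controls against 6.90, 6.88 and 7.04 (difference 0.75, adjusted p = 0.0590). Oasl2, an oligoadenylate synthetase-like protein, was at 5.55 to 5.85 in controls against 6.10 to 6.30, and Gbp3, a guanylate-binding protein, at 4.58 to 4.88 against 5.21 to 5.39. The list median was 0.14 to 0.35 in shRNA 1 livers and -0.08 to 0.06 in controls. Xdh is a member here as well as of the oxidase list.

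Interferon acts through the interferon-stimulated response element, searched as GAAANNGAA on both strands. It was found in the promoters of 19 of the 32 tested members with an entry, 59.4%, against 8.48% of tested genes and 8.56% of all promoters. This list too is of known targets, so the share does not bear on the difference between the groups. Oasl2 holds no such core in its window, while Gstt1 and Ppargc1a, which stood higher, and Tspan33, which stood lower, do. The promoters of Gbp3 (chr3:142559794-142560093, + strand) and Trim12a (chr7:104315446-104315745, - strand) are shown, 5′ to 3′ on the gene's own strand, because both genes are among the 5 leading members and hold the core; capitals mark it, read here from the opposite strand.
Gbp3: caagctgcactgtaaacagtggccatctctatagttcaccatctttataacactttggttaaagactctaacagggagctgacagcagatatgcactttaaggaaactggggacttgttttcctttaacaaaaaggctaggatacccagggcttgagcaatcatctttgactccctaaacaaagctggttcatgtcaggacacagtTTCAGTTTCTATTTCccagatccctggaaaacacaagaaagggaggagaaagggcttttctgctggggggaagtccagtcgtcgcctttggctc
Trim12a: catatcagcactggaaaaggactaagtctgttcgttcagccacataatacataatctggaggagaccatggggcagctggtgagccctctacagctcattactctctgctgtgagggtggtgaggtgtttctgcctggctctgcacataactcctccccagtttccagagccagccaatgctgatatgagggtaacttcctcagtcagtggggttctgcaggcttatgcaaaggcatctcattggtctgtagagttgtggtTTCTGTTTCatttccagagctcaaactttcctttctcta
In the window shown, Gbp3 holds 2 overlapping copies that begin 44 and 38 bases before the start, and Trim12a holds 1 just after its start. The window of another annotated Gbp3 start (chr3:142560106-142560405, + strand) holds no such core. None of the 4 motifs searched was found in the windows of Xaf1, Gstm3, Acly and Fasn.

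Markers of other liver cells were read beside these results. Of 12 sinusoidal endothelial markers 9 had a higher mean, against 52.4% of all genes. Of these markers 4 lay at an unadjusted p under 0.05, all higher, against 4.57% of all genes: Ehd3, Oit3, Dnase1l3 and Clec4g. The median of this marker list was 0.14 to 0.19 in shRNA 1 livers against -0.07 to 0.08 in controls. Its difference between the groups had the same direction as that of the interferon list, but the order of single livers was not the same. Among shRNA 1 livers, liver 2 had the lowest endothelial median, 0.14, and the highest interferon median, 0.35. The part of these endothelial markers in the interferon result was not tested. Of them, Stab2 and Lyve1 differed by -0.04 and -0.02. Kupffer cell and macrophage markers were mixed, with 8 of 13 higher, Cd163 at a difference of 0.60 and Lyz2 at -0.37. Of 14 T and NK cell markers 6 passed the level filter, and Cd3d, Cd8a, Ncr1, Gzma and Gzmb did not. Of those 6, 5 had a higher mean, with a median difference of 0.18 and Cd3g, a T cell receptor chain, at 0.42. B cell markers had 5 of 7 with a higher mean and a median of 0.13, led by Cd79a, a B cell receptor chain, at 0.35. The part of these lymphocyte markers in the interferon result was not tested either. Of 11 neutrophil markers 1 passed, with S100a8 and S100a9 among those below the filter. The 11 hepatocyte markers measured had a median difference of 0.01 with Alb, albumin, at 13.72 to 13.78 in controls against 13.75 to 13.79, and 0 lay at an unadjusted p under 0.05. The shRNA 1 livers stood above all controls in 2 of the 11 and below all controls in 3, against 5.07% and 3.82% of all genes. In whole liver, fewer cells of a type and less RNA per cell cannot be told apart.

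**Figure D3:**
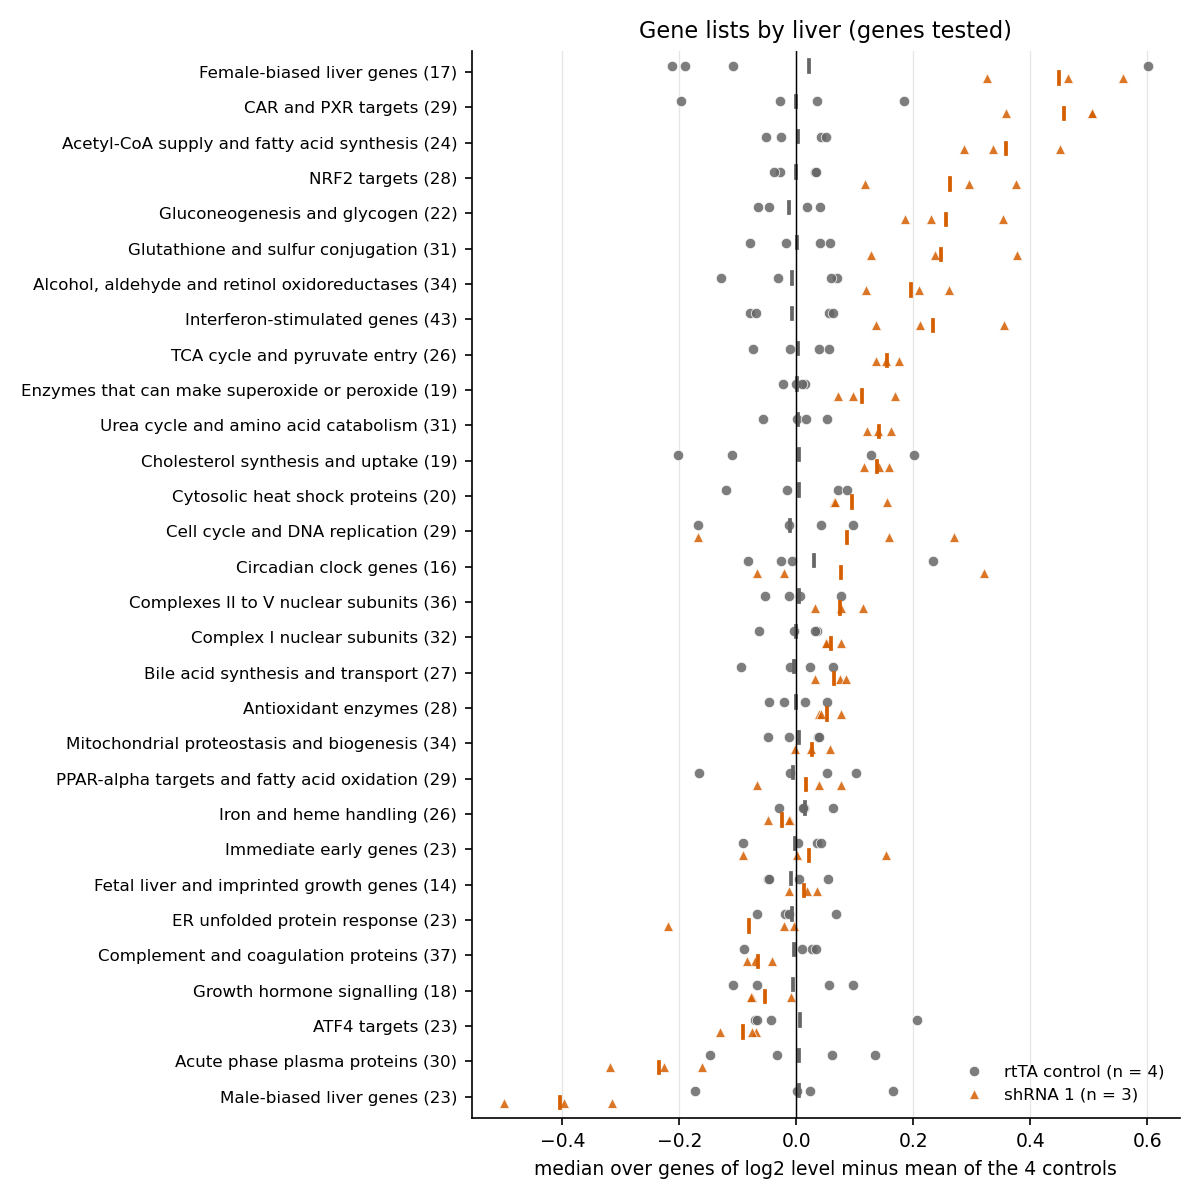
Median over the tested members of each gene list of the log2 level minus the control mean (horizontal), for each control (circles, n = 4) and each shRNA 1 liver (triangles, n = 3), with bars at the group means and the number of genes tested in brackets. CAR and PXR targets and fatty acid synthesis are the uppermost lists in which all shRNA 1 livers exceed all controls, and acute phase and male-biased genes lie lowest; in the female-biased list a control reaches 0.60, above every shRNA 1 liver.

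Acute phase plasma proteins, which hepatocytes secrete under inflammatory signals, stood lower. Of 30 measured members 23 had a lower mean, and 12 lay at an unadjusted p under 0.05, all lower, against 3.32% of all genes. The count depended on single livers: it was 4 without control 2, 4 without shRNA 1 liver 2, 6 without control 1 and 16 without control 4. Itih3, a hyaluronan-binding protease inhibitor chain, was at 11.46, 11.40, 11.35 and 11.33 in controls against 11.06 and 11.05 in shRNA 1 livers 1 and 2 and slightly less in liver 3 (difference -0.35, adjusted p = 0.233). Hp, haptoglobin, was at 12.96, 13.06, 12.87 and 12.55 in controls against 12.52, 12.44 and 12.47 (difference -0.38, adjusted p = 0.446). The controls differed widely among themselves in the strongest acute phase gene, Saa2, chosen after its values were seen: they stood at 11.76, 12.27, 9.69 and 7.20, against 7.51, 6.90 and 7.49. Control 4 thus had a Saa2 level as low as the shRNA 1 livers, and so it did for Lrg1, a leucine-rich glycoprotein, at 9.03 against 9.04, 8.70 and 9.06. Fgl1, Apcs, Itih3 and Hp were lower in the shRNA 1 livers than in control 4 too. By liver the list median was 0.06, 0.13, -0.03 and -0.15 in controls 1 to 4 and -0.16, -0.32 and -0.23 in shRNA 1 livers, so that control 4 and shRNA 1 liver 1 were close. The median difference was -0.20, and -0.32 without control 4.

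Complement genes of the membrane attack complex were among the lower genes as well. C8a was at 11.46, 11.34, 11.37 and 11.28 in controls against 10.93, 10.98 and 10.90 (difference -0.42, adjusted p = 0.233), and C9 at 11.66, 11.56, 11.59 and 11.08 against 10.65 and 10.93 in shRNA 1 livers 1 and 2 and a value between 10.93 and 11.08 in liver 3 (difference -0.61, adjusted p = 0.261). C8b differed by -0.38, C6 by -0.97 and Hc, which encodes C5, by -0.24, and for all 5 of these genes the shRNA 1 livers lay below all controls. The list as a whole, complement and coagulation, had 27 of 37 members with a lower mean and a median of -0.05, with 7 lower at an unadjusted p under 0.05, against 3.32% of all genes, a count of 4 without shRNA 1 liver 3.

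Genes that differ between the sexes gave the largest single differences, in livers that were all labelled male. Cyp2b9, a P450 that is female-biased in adult mice and a CAR target, was at log2 4.01, 5.95, 3.64 and 9.35 in controls 1 to 4 and at 10.14, 9.97 and 9.80 in shRNA 1 livers. The shRNA 1 livers were close to each other while the controls were spread widely, and control 4 stood nearest to the shRNA 1 livers. The difference of 4.23 had a standard error of 1.17 (adjusted p = 0.348), and it was 5.44 without control 4. Slc22a27 and Slc22a26, organic anion transporters of female-biased expression, showed the same order. Slc22a27 was at 2.47, 3.17, 3.06 and 4.20 in controls against 6.34, 5.79 and 5.67, and Slc22a26 at 4.86, 5.26, 4.39 and 7.35 against 7.95, 8.30 and 7.80. In both, control 4 was the highest control and lay below all shRNA 1 livers. The control mean of Slc22a27, 3.23, lay under the filter level of 3.98, so this gene was tested only because the hairpin livers were higher. Of 23 female-biased genes on the array 17 passed the filter, which used a mean that includes the hairpin livers. Of these 13 had a higher mean, against 52.4% of all genes, and 4 lay at an unadjusted p under 0.05, against 4.57%. All 4 were higher, Slc22a27 among them, and the count was 7 without control 4 and 7 without shRNA 2 liver 3. The list median was 0.33 to 0.56 in shRNA 1 livers, and 0.60 in control 4 against -0.21 to -0.11 in the other controls. Xist, the female-specific RNA of the inactive X, was at 2.61 to 3.49 in all 10 livers, below the level filter.

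Male-biased genes stood lower. Of 23 measured members 22 had a lower mean, 8 lay at an unadjusted p under 0.05, all lower, against 3.32% of all genes, and in 9 the shRNA 1 livers lay below all controls, against 3.82% of all genes. Mup21, a major urinary protein, was at 6.27, 6.66, 5.93 and 5.66 in controls against 5.09, 4.44 and 4.90 (difference -1.32, adjusted p = 0.135), a 2.50-fold lower mean. Selenbp2, a selenium-binding protein, was at 12.22, 11.76, 12.36 and 11.20 in controls against 11.09, 10.98 and 10.73, and Cyp7b1, the oxysterol hydroxylase, at 9.48, 9.81, 10.09 and 8.54 against 8.22, 8.35 and 8.25. In each of these 3 genes control 4 was the lowest control and lay nearest to the shRNA 1 livers. Nudt7, a peroxisomal coenzyme A hydrolase, differed by -0.67 and Ugt2b38, a glucuronosyltransferase, by -1.09. The list median was -0.50 to -0.32 in shRNA 1 livers and -0.17 to 0.17 in controls. Growth hormone signalling genes themselves had 1 higher member and 0 lower at an unadjusted p under 0.05, of 18 measured. Over all genes 4.57% were higher and 3.32% lower at that p. The higher member of the list was Stat5b, which carries the growth hormone signal, with a difference of 0.21. With each array left out these counts ran from 0 to 1 higher and from 0 to 2 lower; the higher count was 0 without control 1 or 4, shRNA 1 liver 2 or 3, or shRNA 2 liver 1. C8a, C8b and C6 are counted in both this list and the complement list, and near-identical Mup, Cyp2b and Ugt2b genes were not told apart beyond the annotation.

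**Figure D4:**
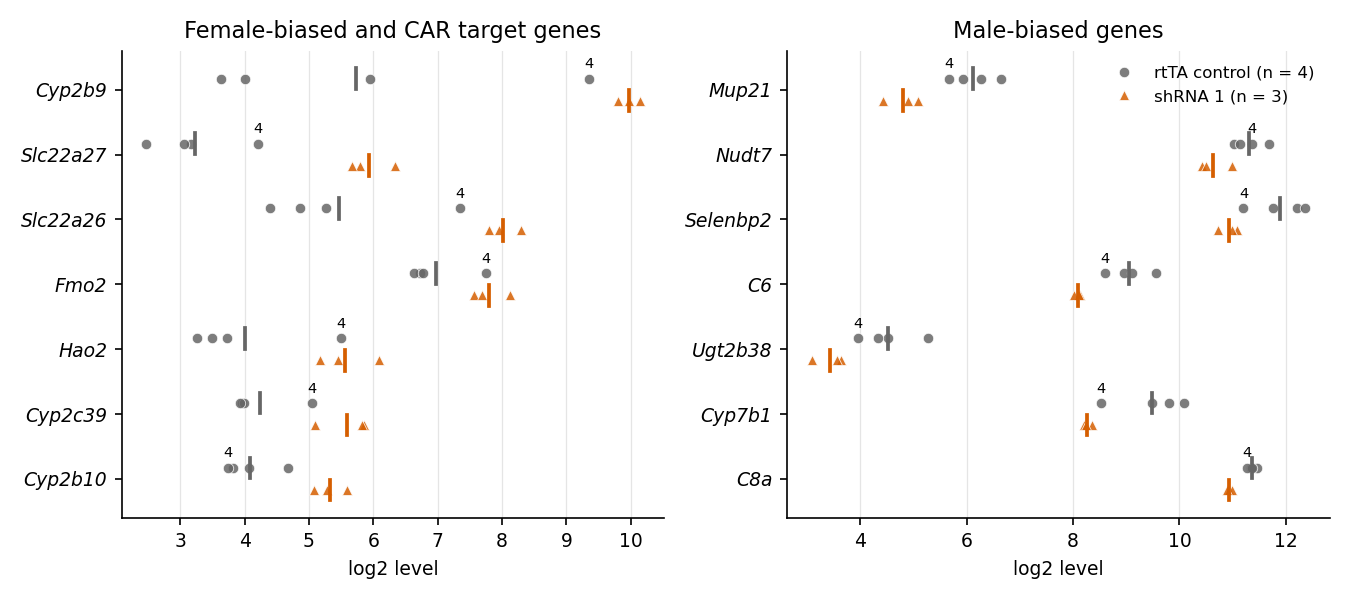
Log2 level (horizontal) of 7 female-biased or CAR target genes (left) and 7 male-biased genes (right) in controls (circles, n = 4) and shRNA 1 livers (triangles, n = 3), with bars at the group means; the digit 4 marks control 4. For Cyp2b9 control 4 is at 9.35 and the other controls at 3.64 to 5.95, against 9.80 to 10.14 in shRNA 1 livers.

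Mitochondrial genes had small differences. Over all genes 52.4% had a higher mean, and 4.57% were higher and 3.32% lower at an unadjusted p under 0.05. Of 32 measured nuclear subunits of complex I 24 had a higher mean, with 1 higher and 1 lower at an unadjusted p under 0.05. The median difference was 0.06, or 0.030 without control 4. Of 36 subunits of complexes II to V 25 had a higher mean and 3 were higher and 1 lower, with 0 higher without control 4 or shRNA 1 liver 1 and 1 higher without control 1 or shRNA 1 liver 3. In that list Cyc1, cytochrome c1, differed by 0.33 and Atp5g1, a ring subunit of the ATP synthase, by -0.35. Mitochondrial proteostasis and biogenesis, led by Ppargc1a, had a median of 0.02, and its next members by test statistic were Dnm1l, which divides mitochondria, at 0.21 and Spg7, a protease of the inner membrane, at -0.18.

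Targets of ATF4, the factor of the integrated stress response, leaned lower, with 6 of 23 lower and 2 higher at an unadjusted p under 0.05, against 3.32% and 4.57% of all genes. Mthfd2, a mitochondrial folate enzyme, was at 4.54, 4.80, 5.15 and 5.85 in controls against 3.69, 4.32 and 4.27 (difference -0.99, adjusted p = 0.324). Fgf21, a hormone of fasting and mitochondrial stress, was at 6.02, 7.50, 5.84 and 7.28 in controls against 5.36, 5.22 and 5.60 (difference -1.27, adjusted p = 0.461), the controls forming a low and a high pair. Control 4 was the highest control for Mthfd2, and for Psat1 (difference -0.48) and Atf5 (difference -0.47). By liver the list median was -0.07, -0.07, -0.04 and 0.21 in controls 1 to 4 and -0.07, -0.13 and -0.08 in shRNA 1 livers. Controls 1 to 3 were thus close to shRNA 1 livers 1 and 3, and control 4 stood apart. The median difference of -0.11 was -0.02 without shRNA 1 liver 1 and -0.05 without control 4. Without control 4 the lower count was 4. The unfolded protein response list had 20 of 23 members with a lower mean, 2 of them at an unadjusted p under 0.05, Syvn1, an ubiquitin ligase, and Xbp1, its transcription factor, at -0.35 and -0.39. That count was 4 without shRNA 1 liver 3 and 0 without control 3 or shRNA 1 liver 1, and it was 1 without control 2, control 4 or shRNA 2 liver 1.

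The remaining lists had from 0 to 6 members at an unadjusted p under 0.05, where 4.57% of all genes were higher and 3.32% lower. Targets of PPAR-alpha had 1 higher and 3 lower of 29, the higher being Hadh, an enzyme of fatty acid oxidation (difference 0.26), and among the lower were Ppara itself (-0.25) and Cpt1a, the gate of mitochondrial fatty acid entry (-0.26). These counts were 0 and 4 without shRNA 1 liver 1, 1 and 1 without shRNA 1 liver 2, 0 and 2 without shRNA 1 liver 3, and 3 and 3 without control 4. Bile acid synthesis and transport had 2 of 27, both higher: Abcc3, a basolateral exporter (0.56), and Akr1d1, a steroid reductase (0.57); the count was 4 without control 3 or without shRNA 1 liver 1. Iron and heme handling had 1 higher, Blvrb, the biliverdin reductase (0.50), and 5 lower, among them Cpox and Ppox, successive enzymes of heme synthesis (-0.40 and -0.27); the lower count was 2 without shRNA 1 liver 3 and 3 without control 1, control 3 or shRNA 1 liver 2, and the higher count was 3 without shRNA 1 liver 1. Cell cycle genes had 2 of 29 higher, Rrm2 and Tyms, which make DNA precursors (0.55 and 0.28), and 5 without shRNA 1 liver 3. Cytosolic heat shock proteins had 1 of 20 higher, Hsph1 (0.47), and immediate early genes 2 of 23, Dusp1 (0.37) and Gadd45b (0.46). The heat shock count was 0 without control 1 or shRNA 1 liver 2 and 3 without control 3 or shRNA 1 liver 1, and the immediate early count was 1 without control 1, control 3 or shRNA 1 liver 2. Circadian clock genes had 0 of 16, or 2 higher without shRNA 1 liver 1 or 3 and 1 without control 1 or 3, and fetal and imprinted genes 0 of 14.

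The shRNA 1 livers were also set directly against the shRNA 2 livers, a contrast of group means that uses the controls only for the common estimate of spread. Of the 13308 genes 2 (0.015%) passed the adjusted threshold, and 801 (6.02%) lay at an unadjusted p under 0.05. Dusp1, a phosphatase that switches off MAP kinases, was at log2 8.67, 8.37 and 8.43 in shRNA 1 livers and at 7.57, 7.54 and 7.40 in shRNA 2 livers, with controls between at 8.10, 7.96, 8.04 and 8.37. It was higher by 0.99 in shRNA 1 livers with a standard error of 0.13 (adjusted p = 0.0350), and every shRNA 1 liver exceeded every shRNA 2 liver. It lost this call when any of the arrays other than control 4 was left out. Its adjusted p was then 0.0516 (without control 2) to 0.169 (without shRNA 2 liver 1). With clock phase in the fit its adjusted p in limma was 0.109, and with quantile normalization 0.0555. Clock phase was not matched between these groups: Arntl was at 6.86, 7.92 and 7.94 in shRNA 1 livers and at 6.29, 7.58 and 5.44 in shRNA 2 livers. Ctse, the aspartic protease cathepsin E, was at 3.89, 3.92 and 3.79 in shRNA 1 livers, overlapping the controls, and at 6.33, 6.24 and 6.24 in shRNA 2 livers (difference -2.40, adjusted p = 8.72e-08). It passed with each array left out. Its means in controls and shRNA 1 livers, 3.97 and 3.87, lay under the filter level of 3.98, so it was tested only because of the shRNA 2 livers, and the difference is measured from a signal at the low end of the arrays.

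The leading genes of the comparison with controls were then read in this contrast. Gstm3 was higher by 1.28 in shRNA 1 than in shRNA 2 livers (adjusted p = 0.0821), Xdh by 0.64 (adjusted p = 0.0971), and Fgl1 was lower, with a difference of -0.78 (adjusted p = 0.0821). Against the same 4 controls, which both comparisons share, these 3 genes differed by 1.35, 0.64 and -0.76 in shRNA 1 livers and by 0.07, 0.00 and 0.02 in shRNA 2 livers. Csad, which makes the taurine precursor hypotaurine, was at 9.62 to 9.73 in shRNA 1 livers and 7.31 to 7.93 in shRNA 2 livers, with controls spread from 7.93 to 9.52 (difference 2.01, adjusted p = 0.0821). For Retreg1, Mup21 and Adh6-ps1 the differences between the hairpins were 0.11, -0.13 and 0.02, and their differences from control were 0.61, -1.32 and -0.91 in shRNA 1 livers and 0.50, -1.19 and -0.94 in shRNA 2 livers. Acss2 and Acly lay between, at 0.50 and 0.40 above the shRNA 2 livers with adjusted p of 0.255 and 0.687. List medians against control, in shRNA 1 and then shRNA 2 livers, were 0.32 and 0.16 for fatty acid synthesis and 0.26 and 0.04 for NRF2 targets. They were 0.19 and 0.03 for interferon-stimulated genes, -0.20 and -0.04 for acute phase proteins, and -0.38 and -0.48 for male-biased genes. For CAR and PXR targets they were 0.45 and 0.15, for cholesterol synthesis 0.12 and 0.20, and for female-biased genes 0.47 and 0.60. By liver the female-biased median was 0.17, 0.15 and 1.61 in shRNA 2 livers 1 to 3. Cyp2b9 differed from control by 4.23 in shRNA 1 livers and by 3.17 in shRNA 2 livers. By liver the male-biased median was 0.02, -0.09 and -0.87 in shRNA 2 livers 1 to 3. Only shRNA 2 liver 3 thus lay outside the control range of -0.17 to 0.17.

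**Figure D5:**
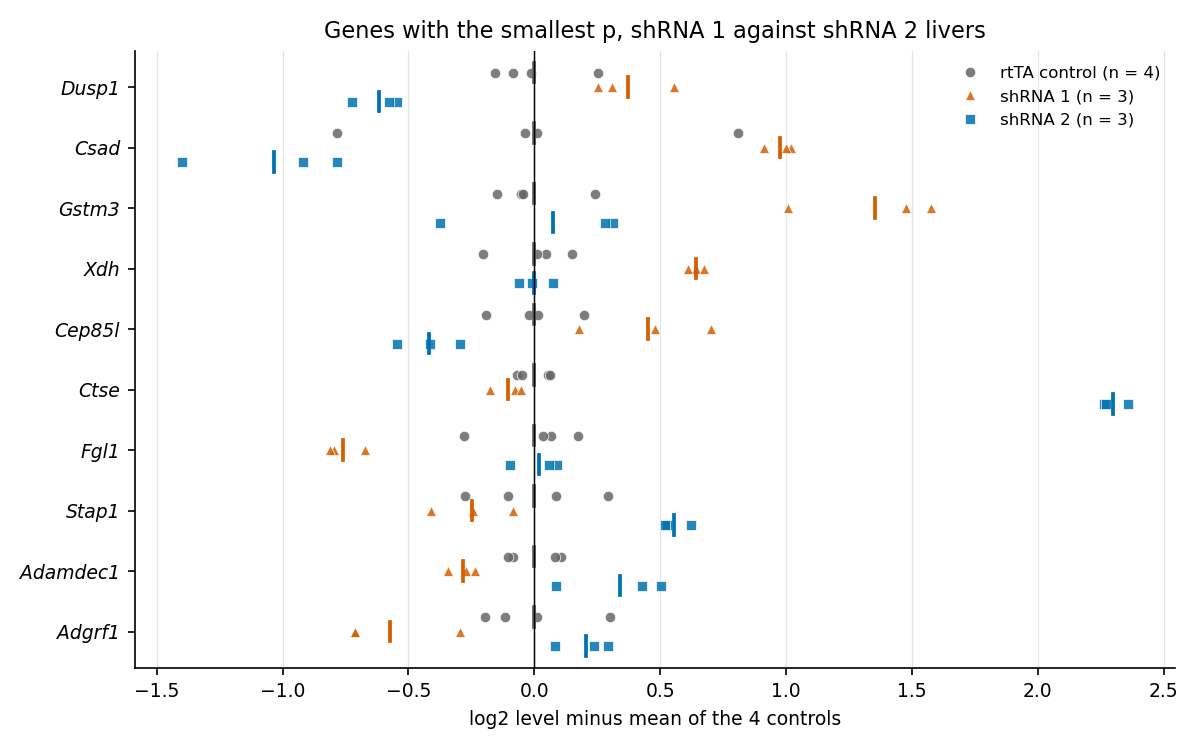
Log2 level minus the mean of the 4 controls (horizontal) for the 5 genes in each direction with the smallest p between the hairpins; circles are controls (n = 4), triangles shRNA 1 livers (n = 3), squares shRNA 2 livers (n = 3), and bars the group means. For Gstm3, Xdh and Fgl1 the shRNA 2 livers lie around the controls and the shRNA 1 livers apart; for Ctse the reverse holds.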

How the data were processed

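RNA of 25 mg of liver per sample was hybridised to a whole-transcript Affymetrix mouse gene array, 1 array per sample. Per the submitters' processing notes, Affymetrix Expression Console produced the deposited table, with 1 log2 value per transcript cluster and array. For its version, normalization and build the sources used here give nothing, and the scale was inferred from the range of values. No further normalization was applied.

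Of 41345 clusters 23521 had 1 gene symbol, 1814 several and 16010 none in the platform annotation, and 23328 of the first kind matched RefSeq genes of GRCm38.p6 by Entrez identifier. Where a gene had several clusters (1082 genes), that of highest mean stood for it. The level filter kept genes at or above the 40th percentile of the mean over arrays, log2 3.98. Limma 3.58.1 in R 4.3.3 (lmFit, contrasts.fit, eBayes) fitted 3 groups over all 10 arrays, with two-sided tests and Benjamini-Hochberg adjustment over 13308 genes. Precision is limited by how many arrays there are. The script was tested on simulated data. Plots used matplotlib 3.10.9 under Python 3.11.15.

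Named genes were the 15 with the smallest p and the 8 with the largest non-overlapping difference in each direction, up to 5 members per list by absolute moderated t, the 3 Sod genes, 5 genes in each direction between the hairpins, and markers of 12 cell types. Predicted or unnamed symbols were passed over. The 30 gene lists and the comparison itself were chosen with earlier results of these data known. Alternatives covered normalization, level filter, cluster choice, samples in the fit, replicate block, array weights, variance model, clock phase, thresholds and leaving out each array.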

Additional observations from a re-analysis of the deposited data

Results flagged for a closer look

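In 6 named genes and 2 gene lists 1 control stood apart from the other 3 by Dixon's test at its 95% critical value, among 76 sets of 4 control values examined, of which chance alone picks out a small share. Control 1 was the low control for Acss2 at log2 9.48, and control 4 was the low control for Dhrs7 at 6.16 and for Gbe1 at 8.82. Control 4 was the high control for Lifr at 11.23 and for Cyp2c39 at 5.05, and control 2 was the low control for Pkdcc, a secreted kinase, at 6.69. Control 4 also had the highest median for ATF4 targets, 0.21, and for female-biased genes, 0.60.

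Between the hairpins, 2 genes differed past the adjusted threshold in limma. Dusp1 was higher in shRNA 1 than in shRNA 2 livers by 0.99, and Ctse was lower, with a difference of -2.40. Ctse was under the level filter in shRNA 1 and control livers and passed it only through the shRNA 2 livers.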

How the results depend on the processing

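The array number limits every comparison, and no gene passed an adjusted p of 0.05 between shRNA 1 and control livers. Other settings called 1 gene (quantile normalization), 2 (clock covariate), 7 (mean of a gene's clusters), 15 (60th percentile filter), 19 (array weights) and 30 (intensity trend with robust prior), and thresholds of 0.10 and 0.20 gave 20 and 36. Leaving out each array gave 0 to 11. Acss2 passed in 9 of 21 settings, and Fgl1, Gstm3 and Tspan33 in 6. Between the hairpins, where 2 genes passed, the count was 1 with quantile normalization, the 60th percentile filter or the clock covariate, 6 with array weights, 7 with the intensity trend, 8 and 9 at thresholds of 0.10 and 0.20, and 1 to 4 with each array left out. The titles number the livers, and the numbers were not taken as pairs. Same-numbered shRNA 1 and control livers correlated at 0.217, 0.0831 and 0.122 in their deviations from the group means. Differently numbered ones correlated at -0.198 to 0.134. Same-numbered livers of any groups ranged from -0.25 to 0.267. So few values cannot decide whether the livers were paired. With the replicate block 0 genes passed against control and 4 between the hairpins, and the medians were 0.093 for oxidases, 0.030 for complex I and -0.31 for acute phase proteins. With each array left out, list medians ranged from 0.28 to 0.39 for fatty acid synthesis, 0.093 to 0.15 for oxidases, 0.19 to 0.30 for gluconeogenesis and glycogen, 0.030 to 0.074 for complex I, -0.14 to -0.018 for ATF4 targets, -0.32 to -0.17 for acute phase proteins, 0.15 to 0.31 for glutathione and sulfur conjugation, and -0.025 to 0.026 for iron and heme handling. The causes were not tested. Of 3256 values for the 164 named genes, 3157 kept direction and side of the threshold, 91 passed it and 8 changed sign. The gene Sod2, at 0.01, was -0.0213 with quantile normalization, -0.00920 with the replicate block, -0.00616 with array weights, and -0.00955 to 0.0457 with each array left out, below 0 without control 3, control 4, shRNA 1 liver 1 or shRNA 1 liver 2. The gene Arntl, at 0.33, ranged from -0.0347 (without control 1) to 0.684. List medians changed sign in 26 of 600 values, in 7 lists whose medians lay between -0.043 and 0.085.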
